A study of Drosophila melanogaster with 2 samples.

Results

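The 10 genes described here are ecdysone response genes other than nuclear receptors, namely br, Eip74EF, Kr-h1, Blimp-1, E23, Eip63F-1, Eip93F, crol, tai and ImpL2. They were taken by name from 13945 protein-coding genes on the nuclear chromosome arms, with earlier results of these data already known. Every summit of the thresholded dsf-eGFP binding list that lay inside one of these genes or within 5 kb of it was examined, which gave 15 summits of the 1731 regions in the list. The data are chromatin immunoprecipitation sequencing (ChIP-seq) from whole Drosophila melanogaster larvae, in the wandering stage of the third instar, with the sexes pooled and the age unknown, per the labels. All larvae were of the strain dsf-GFP, which stably carries the nuclear receptor dsf (dissatisfaction) with GFP at its C-terminus, and the precipitation was directed at GFP. The single group held 2 biological replicates, numbered 3 and 4, and no untreated or mock sample was analysed here. The labels do not say how many larvae were pooled or in which cells the fusion protein was present.

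Ecdysone is the steroid hormone that drives moulting and metamorphosis in insects. Its receptor switches on a small set of early genes, many of which encode transcription factors, and these in turn act on later genes in each tissue. Wandering larvae stand shortly before the hormone pulse that starts pupariation, when the early genes are known to become active. dsf belongs to the tailless group of orphan nuclear receptors and is not itself one of the classical ecdysone-regulated receptors.

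Regions carry a signal value that the authors' peak caller gave, used here only to rank and describe regions within a list. One list was thresholded by the irreproducible discovery rate (IDR), a procedure based on how alike replicates rank regions. It holds the 1731 strongest regions of a pooled list of 29999, of which 1708 are nuclear and 23 mitochondrial. A place in it thus follows the pooled rank and does not show that both replicates ranked that region high. Of the nuclear summits, 56.6% were among the 1731 strongest regions of both replicates. The pooled list was deposited as peaks together with background, so a region in its lower ranks is not by itself evidence of binding. Rank 1731 corresponds to a signal value of 30.18 in replicate 3, 47.16 in replicate 4 and 73.53 in the pooled list, so signal values are not compared between lists. Coordinates are on dm6 and count from 1. Sequencing depth is unknown, so the counting error of the signal values cannot be given.

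Of the 10 genes, 7 had at least 1 IDR-thresholded summit inside them or within 5 kb, against 26.8% of all protein-coding genes. The genes are long, from 12.1 to 89.7 kb with a median of 23.4 kb, while the median protein-coding gene spans 2.17 kb. Among the 1651 protein-coding genes as long as the shortest of the 10, 36.6% had such a summit. A summit lay inside the gene for 5 of the 10, against 5.26% of all protein-coding genes and 20.2% of the long ones. For the gene's own transcription start sites (TSS) with a window of 1 kb, a summit was present at 3 of the 10 (E23, Eip63F-1 and crol), against 12.2% of all and 15.9% of the long genes. With a TSS window of 2 kb instead, 6 genes had one, Eip74EF, tai and ImpL2 being added. The shares of all and of the long genes at 2 kb are not given here. A wider window can only raise them, so the 6 genes cannot be set against the 1 kb shares. Together the 10 genes and their flanks covered 507 kb and held 2.96 summits per 100 kb, against 1.28 per 100 kb over the nuclear arms. The summits nearest an own TSS alone gave 1.97 per 100 kb of that span, and the genes without flanks held 2.21 per 100 kb. None of these differences was tested.

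The 15 summits fall into 3 kinds by position. Within 1 kb of the gene's own TSS lay 3 summits. At the TSS of a neighbouring gene lay 4 summits, which enter the count because the neighbour starts within 5 kb. The remaining 8 were more than 1 kb from every protein-coding TSS and all lay in introns of Eip74EF, E23, tai or ImpL2. That is 53.3% of the 15, against 30.7% of all nuclear summits. Counting the one at Eip63F-1, all 9 summits inside the genes were intronic and none was in an exon.

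**Figure D1:**
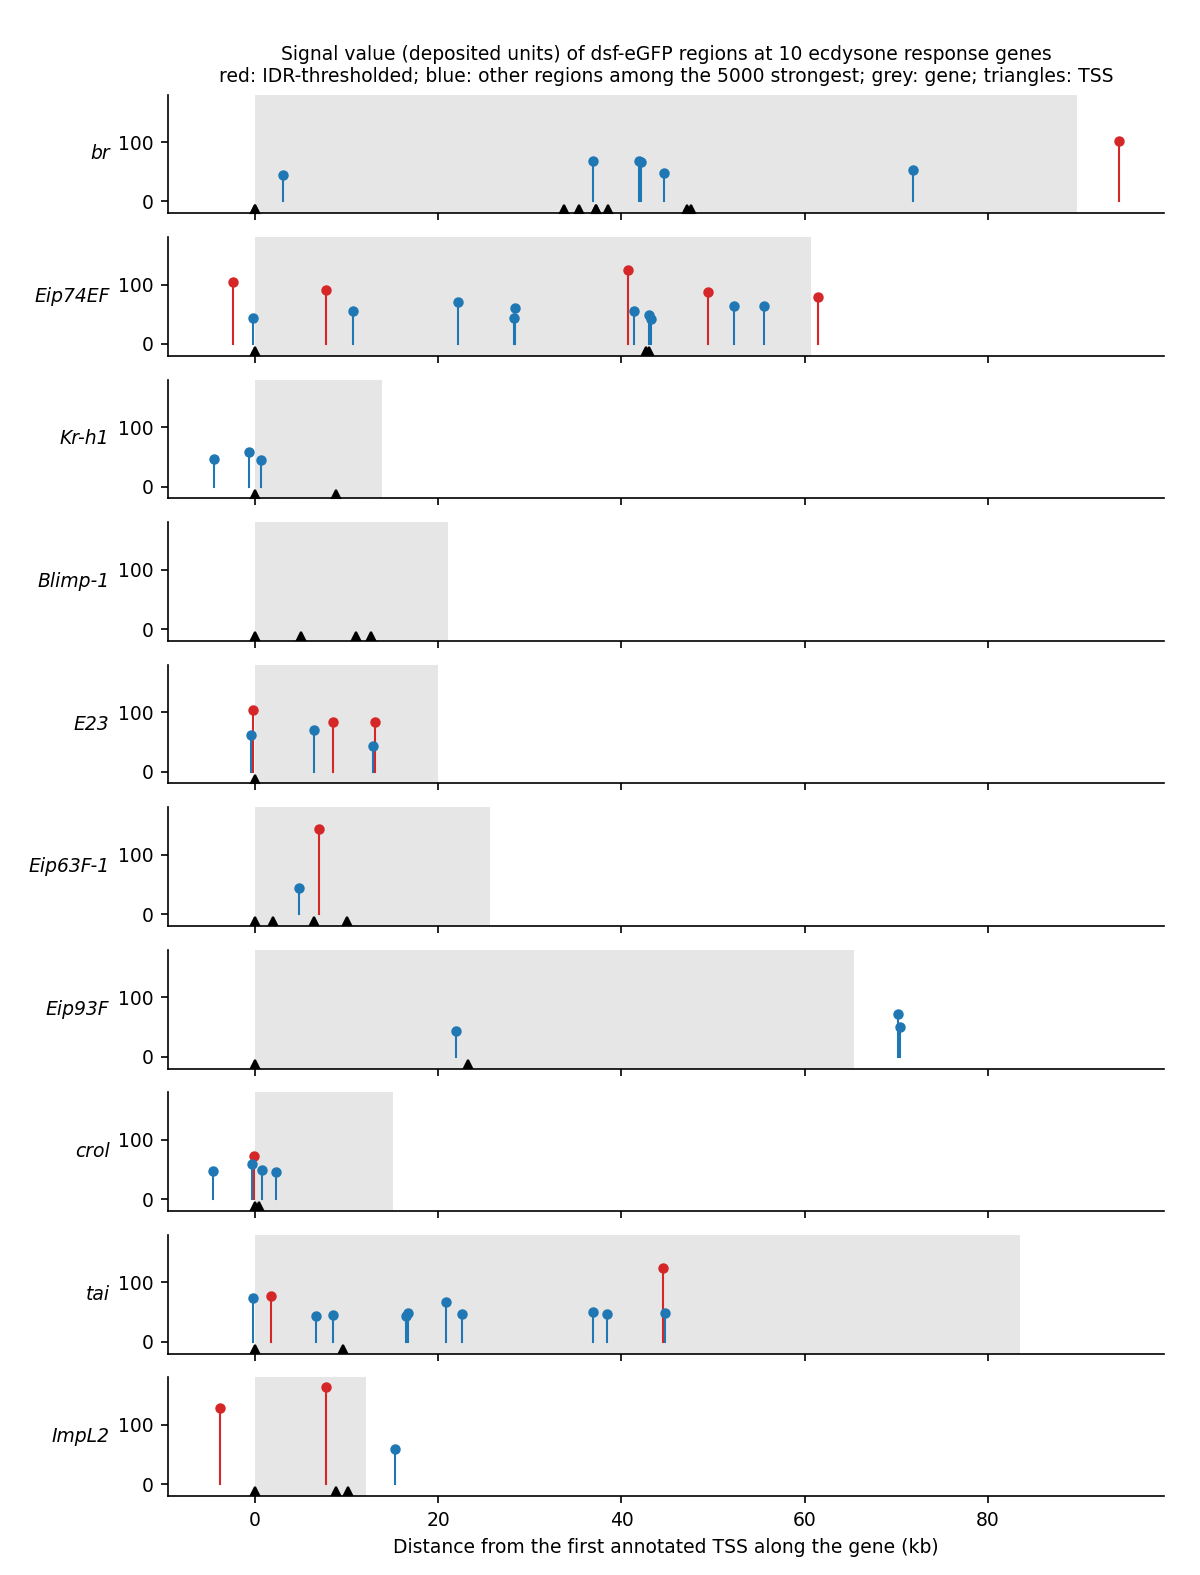
Each panel shows 1 gene, drawn in its direction of transcription from its first annotated TSS (kb), with the deposited signal value of each region on the vertical axis. Red pins are IDR-thresholded summits, blue pins are the other summits among the 5000 strongest pooled regions, the grey band is the gene and triangles are TSS positions. Eip74EF carries 5 red and 10 blue pins, while Blimp-1 carries none.

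The sequences below show the 101 bases centred on 7 of the 15 summits. Those chosen are the 3 summits within 1 kb of an own TSS and the strongest intronic summits of Eip74EF, tai and ImpL2. The last is the remaining summit that holds one of the words searched. The Eip63F-1 window is named by its nearest start, but its centre lies in an intron, 503 bp downstream of that start. All sequences are on the plus strand of the release 6 reference genome (dm6, from RefSeq), 5′ to 3′. Capitals mark matches, on either strand, to any of 5 words: AAGTCA, the core recognised by receptors of the tailless group, AGGTCA, the nuclear receptor half-site, TATCGA, part of the element that the factor Dref recognises, TATAAA, the TATA sequence, and GAGAGA, bound by the GAGA factor.
E23 promoter (chr2L:3355005-3355105): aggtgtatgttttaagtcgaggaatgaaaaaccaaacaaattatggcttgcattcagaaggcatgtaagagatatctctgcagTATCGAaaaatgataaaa
crol promoter (chr2L:11809501-11809601): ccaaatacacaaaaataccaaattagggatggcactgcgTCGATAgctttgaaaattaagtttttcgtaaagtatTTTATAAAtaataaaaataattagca
Eip63F-1, isoform RB start (chr3L:3928610-3928710): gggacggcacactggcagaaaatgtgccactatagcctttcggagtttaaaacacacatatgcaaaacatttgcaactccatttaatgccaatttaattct
Eip74EF, intron, upstream of RB (chr3L:17578518-17578618): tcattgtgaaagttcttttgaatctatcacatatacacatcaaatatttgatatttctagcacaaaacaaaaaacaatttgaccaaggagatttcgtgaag
tai, intron (chr2L:9211296-9211396): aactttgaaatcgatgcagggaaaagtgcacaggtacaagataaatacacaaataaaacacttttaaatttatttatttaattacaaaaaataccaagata
ImpL2, intron of RA (chr3L:4228367-4228467): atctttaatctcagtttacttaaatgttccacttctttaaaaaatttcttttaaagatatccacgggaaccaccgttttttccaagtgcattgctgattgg
CycT promoter beside Eip74EF (chr3L:17557824-17557924): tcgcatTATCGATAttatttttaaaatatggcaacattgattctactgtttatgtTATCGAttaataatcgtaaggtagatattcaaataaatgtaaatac

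The E23 promoter window holds 1 TATCGA, and the crol window holds TCGATA, which is TATCGA read on the other strand, and a TATAAA pair that overlaps on opposite strands. The CycT window beside Eip74EF holds TATCGA at 2 places, 1 of them overlapping its own reverse match. The windows at Eip63F-1, Eip74EF, tai and ImpL2 hold none of the 5 words. Over all 15 summits, TATCGA occurred within 50 bp of 3 (20.0%), against 10.1% of the 1708 nuclear summits and 13.8% of windows of the same length centred on the 19252 protein-coding TSS positions. TATAAA occurred at 1 of the 15 (6.67%), against 393 of the 1708 nuclear summits and 15.5% of TSS windows. AAGTCA occurred at 0 of the 15, against 5.27% of nuclear summits and 5.98% of TSS windows. A share of that size corresponds to fewer than 1 of 15 summits. Within 100 bp AAGTCA was at 2 of the 15, and the share of all nuclear summits in that wider window is not given here. AGGTCA and GAGAGA were also at 0 of the 15, against 1.76% and 3.34% of nuclear summits. A match describes the letters in the window and no match says nothing about whether a factor bound there. The windows were rich in A and T, with a median of 71.3% against 68.3% for all nuclear summits.

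Among the 4 early regulators, the transcription factor genes that answer the hormone first, 5 of the 6 counted summits were at Eip74EF and the other one was beyond the end of br, with none at Kr-h1 or Blimp-1. Eip74EF (FBgn0000567, 3L 17558672 to 17619325, minus strand) encodes an ETS-domain transcription factor, made from nested promoters that give a long and a short transcription unit. It had 5 IDR-thresholded summits inside it or within 5 kb, and 0.129% of all protein-coding genes (0.787% of the long ones) had 5 or more. That cut is the count of Eip74EF itself. The gene spans 60.7 kb, while the long genes start at 12.1 kb, so its length is not matched. Of the 5 summits, 3 were intronic and had Eip74EF as the gene with the nearest TSS.

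The strongest of these summits (3L 17578366 to 17578769) lay 1942 bp upstream of the start of isoform RB, inside an intron of the long isoforms. Its signal value was 124.5 in the pooled list, 38.80 in replicate 3 and 87.76 in replicate 4, with ranks of 619, 1046 and 427. A second intronic summit (3L 17611363 to 17611766) lay 7760 bp downstream of the start shared by isoforms RA, RC and RE, with a signal value of 90.31, 43.77 in replicate 3 and 40.38 in replicate 4, and ranks of 837 and 2405 in the replicates. The third (3L 17569697 to 17570100) lay 6421 bp downstream of the start of RD, with a signal value of 87.81, 33.99 and 56.27 in the replicates and ranks of 1347 and 1171. The first and the third were thus among the 1731 strongest regions of both replicates, and the second only of replicate 3. No IDR-thresholded summit lay within 1 kb of the 3 TSS positions of Eip74EF, although weaker pooled regions did, the best with a rank of 3788 and a signal value of 48.12, 25 bp downstream of the start of RD. In replicate 3 alone a region of rank 1423 (signal value 33.08) lay 217 bp downstream of that start, and the best region of replicate 4 there ranked 7969.

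The other 2 summits counted at Eip74EF lay at neighbouring promoters. One (3L 17557672 to 17558075, signal value 79.48) was 798 bp past the 3′ end of Eip74EF and 86 bp upstream of CycT, which encodes cyclin T, the partner of the kinase that releases paused RNA polymerase. It ranked 1351 in replicate 3 and 3248 in replicate 4. The other (3L 17621506 to 17621909, signal value 105.0) was 2383 bp upstream of the distal start of Eip74EF, between the divergent promoters of Vps60, a gene of the membrane-remodelling ESCRT machinery, 83 bp away, and anchor, 116 bp away. It ranked 1440 and 643. Positions alone do not say which of these genes a summit serves.

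The gene br (FBgn0283451, X 1575132 to 1664869, plus strand), which encodes the Broad family of BTB zinc finger transcription factors that mark the pupal commitment, had no IDR-thresholded summit inside its 89.7 kb. Its single counted summit (X 1669189 to 1669592) was 4522 bp past the 3′ end, 94 bp upstream of CG3740 and 179 bp upstream of hfw, which runs the other way. That region had a signal value of 101.2, with 49.12 in replicate 3 and 45.99 in replicate 4, and ranks of 664 and 1831. The strongest pooled region inside br (X 1616842 to 1617245) was intronic, with a rank of 1959 and a signal value of 68.82. It lay 3387 bp downstream of the start of RI and 1111 bp downstream of a TSS of Mur2B, which was nearer, and it ranked 2324 in replicate 4 with no match within 100 bp in replicate 3. The strongest at a TSS of br had a rank of 2048 and a signal value of 67.28, 292 bp upstream of the TSS that 8 isoforms share, 259 bp upstream of the start of RP. In the replicates the TSS region ranked 3728 and 6669. Of the 9 TSS positions of br, 4 had no pooled region within 1 kb, among them both of the most distal starts, those of RN and RO.

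Kr-h1 (FBgn0266450, 2L 6082603 to 6096498, plus strand), a zinc finger gene best known as the main target of juvenile hormone, had no IDR-thresholded summit. Its strongest pooled region (2L 6081801 to 6082204) lay 600 bp upstream of the start of RA, with a signal value of 58.94 and a rank of 2588, and ranked 4283 in replicate 3 and 4632 in replicate 4. In replicate 4 a region in the 5′ UTR, 625 bp downstream of the same start, was stronger, with a rank of 2544. The start of RB had no region within 1 kb in any list. Blimp-1 (FBgn0035625, 3L 5630983 to 5652094, plus strand) encodes a zinc finger repressor that holds back ftz-f1 until the hormone has fallen. It was the only one of the 10 genes without any of the 5000 strongest pooled regions, its best being intronic with a rank of 5674 and a signal value of 38.93. That region ranked 4404 in replicate 4 and had no match within 100 bp in replicate 3.

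E23 and Eip63F-1 are early genes that encode no transcription factor, and both had a summit at a TSS of their own. E23 (FBgn0020445, 2L 3334875 to 3354829, minus strand) encodes an ATP-binding cassette transporter known to lower the response of cells to ecdysone. Its promoter summit (2L 3354853 to 3355256) lay 226 bp upstream of the TSS that all 3 of its isoforms share, the position shown above with TATCGA. The signal value was 103.0, with 40.41 in replicate 3 and 65.29 in replicate 4, and the replicates gave it similar ranks of 967 and 860. The 2 further summits at E23 were intronic, 8546 bp and 13060 bp downstream of the TSS, with signal values of 83.43 and 82.82. Both were high in replicate 3, with ranks of 1106 and 619, and lower in replicate 4, with ranks of 3269 and 2836. For the summit at 13060 bp the TSS of CG15408 was nearer, at 8955 bp, although the summit is inside E23.

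Eip63F-1 (FBgn0004910, 3L 3909973 to 3935617, minus strand) encodes a calcium-binding protein of the EF-hand family. It has 4 isoforms with a TSS each, and its single summit (3L 3928458 to 3928861) lay 503 bp downstream of the start of RB, in an intron. The signal value was 142.8, with 47.79 in replicate 3 and 93.90 in replicate 4, and the ranks were 706 and 365. Near the other 3 starts the best pooled regions ranked 8269 (RA), 8399 (RC) and 14075 (RD), so the strong region at this gene was within 1 kb of only 1 of its 4 starts.

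Of the later regulators, crol had a weak promoter summit and Eip93F none. The zinc finger gene crol (FBgn0020309, 2L 11794327 to 11809438, minus strand) is needed for leg development and for ecdysone responses in prepupae. Its summit (2L 11809349 to 11809752) lay 113 bp upstream of the start that 5 isoforms share and 579 bp upstream of the start of the other 4. With a signal value of 73.66 and rank 1723 it was close to the end of the list, where the last nuclear region had 73.53 and the next one outside had 73.45. It ranked 1871 in replicate 3 and 1943 in replicate 4, outside the 1731 strongest of each. The strongest region of replicate 4 at crol was another one, in an intron 1982 bp downstream of the second start, with a rank of 1591 and a signal value of 48.85. Eip93F (FBgn0264490, 3R 21949114 to 22014539, plus strand), whose product directs adult development and larval cell death, had no IDR-thresholded summit inside its 65.4 kb or its flanks. Its best pooled region, rank 1842 with a signal value of 71.19, lay outside the 3′ end, 84 bp upstream of Idh3b, a subunit gene of isocitrate dehydrogenase. That region ranked 1380 in replicate 4 and had no match within 100 bp in replicate 3, whose best region at the gene was intronic and ranked 2837. The start of isoform RB had no region within 1 kb in any list, and at the other start the best pooled region ranked 23138.

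The coactivator gene tai (FBgn0041092, 2L 9166778 to 9250211, plus strand) encodes a p160-type partner of the ecdysone receptor. Its stronger summit (2L 9211144 to 9211547) was intronic, 34988 bp downstream of the nearer of its 2 TSS positions. It had a signal value of 124.7, with 57.69 in replicate 3 and 70.50 in replicate 4, and similar ranks of 477 and 723. The weaker summit (2L 9168322 to 9168725, signal value 77.65) lay 1746 bp downstream of the distal start, with ranks of 976 and 2325. At the distal start itself a region of rank 1752 with a signal value of 73.04 missed the thresholded list by 21 ranks. It was 185 bp upstream of tai and 79 bp upstream of the divergent gene CG9586, and it ranked 2158 in replicate 3 and 1669 in replicate 4.

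ImpL2 (FBgn0001257, 3L 4224006 to 4236147, minus strand) encodes a secreted protein that binds insulin-like peptides and is a later target, induced by ecdysone in imaginal discs. It carried the strongest of the 15 summits (3L 4228215 to 4228618), 1115 bp upstream of the start of isoforms RB and RD, in an intron of RA. The signal value was 163.9, with 61.27 in replicate 3 and 102.1 in replicate 4, and the ranks were 415 and 288. The annotation gives a further gene, CG46460, the same start, so the summit is equally near to both. A second summit (3L 4239806 to 4240209, signal value 129.3) was 3861 bp upstream of the distal start of ImpL2 and 165 bp upstream of Sqor, which encodes a mitochondrial sulfide:quinone oxidoreductase. It ranked 643 in replicate 3, while the nearest summit of replicate 4 was 174 bp away with a rank of 626.

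By class, 2 of 4 early regulators, both early genes without a transcription factor, 1 of 2 later regulators, the coactivator and the later target had a summit by the 5 kb rule. Without the 5 summits that were nearer to another gene's TSS, 10 remained, of which 3 were at Eip74EF, 2 at E23, 1 at Eip63F-1, 1 at crol, 2 at tai and 1 at ImpL2. The classes hold 1 to 4 genes, so early and later genes could not be told apart by these counts.

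**Figure D2:**
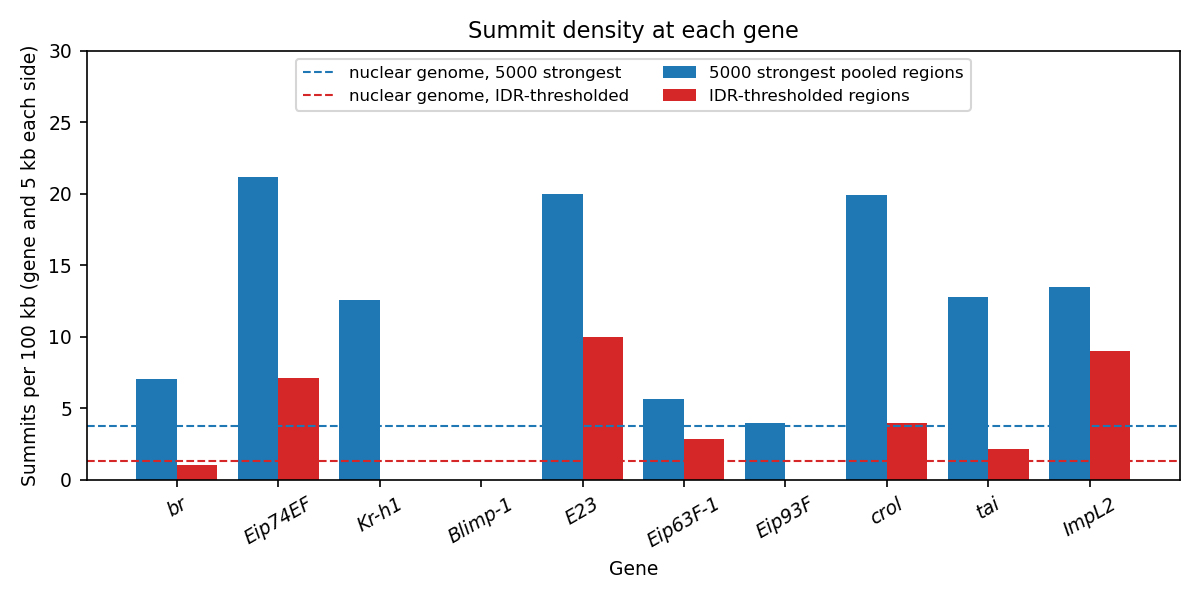
Bars give the number of summits per 100 kb of each gene with 5 kb on each side, for the 5000 strongest pooled regions (blue) and the IDR-thresholded regions (red), and dashed lines give the same over the nuclear arms. E23, ImpL2 (9.03) and Eip74EF (7.08) have the 3 highest red bars, against the red line at 1.28, and br (1.00) lies below it.

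Below the IDR threshold every one of the 10 genes held further regions of the pooled list, which includes background. Among the 5000 strongest pooled regions, 56 had their summit inside the 10 genes or within 5 kb, 11.0 per 100 kb against 3.72 over the nuclear arms. Eip74EF held 15 of them, the summits at the CycT and Vps60 promoters included, followed by tai with 12, br with 7, E23 with 6 and crol with 5. The share of all protein-coding genes with 15 or more was 0.0574%. That cut is the count of Eip74EF itself, a gene of 60.7 kb, and the share among long genes was not counted. Kr-h1, Eip93F and ImpL2 held 3 each, Eip63F-1 held 2 and Blimp-1 held 0. In all 9 of the 10 genes had at least 1, against 45.8% of all protein-coding genes and 62.1% of the long ones. Of the 32 annotated TSS positions of the 10 genes, 4 (12.5%) had an IDR-thresholded summit within 1 kb. A pooled region of any rank, which can be background, was within 1 kb of 23 (71.9%). Over all 19607 protein-coding TSS positions, counted per gene, the shares were 11.6% and 51.6%.

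The replicates ranked the 15 summits differently. In replicate 3, 14 of the 15 were among its 1731 strongest regions (93.3%, against 73.8% of all nuclear summits), and in replicate 4 only 7 were (46.7%, against 77.6%). Both replicates placed 7 (46.7%) among their strongest, against 56.6% of all nuclear summits. These 7 were 2 of the intronic summits and the Vps60 summit at Eip74EF, the promoter summit of E23, and the summits at Eip63F-1, tai (34988 bp) and ImpL2 (1115 bp). Anywhere in the full lists, all 15 had a summit within 100 bp in replicate 3 and 14 did in replicate 4. Among the 14 found in both, 8 ranked higher in replicate 3 and 6 in replicate 4, and 53.5% of the 1473 nuclear summits found in both ranked higher in replicate 3. The median rank of the 14 was 971.5 in replicate 3 and 1501 in replicate 4. Taking the 1731 strongest regions of one replicate alone, br had 0 summits without replicate 3, E23 had 1 and Eip93F had 1, while without replicate 4 crol had 0 and E23 had 4. With 2 replicates and 1 group no test of these ranks was made.

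**Figure D3:**
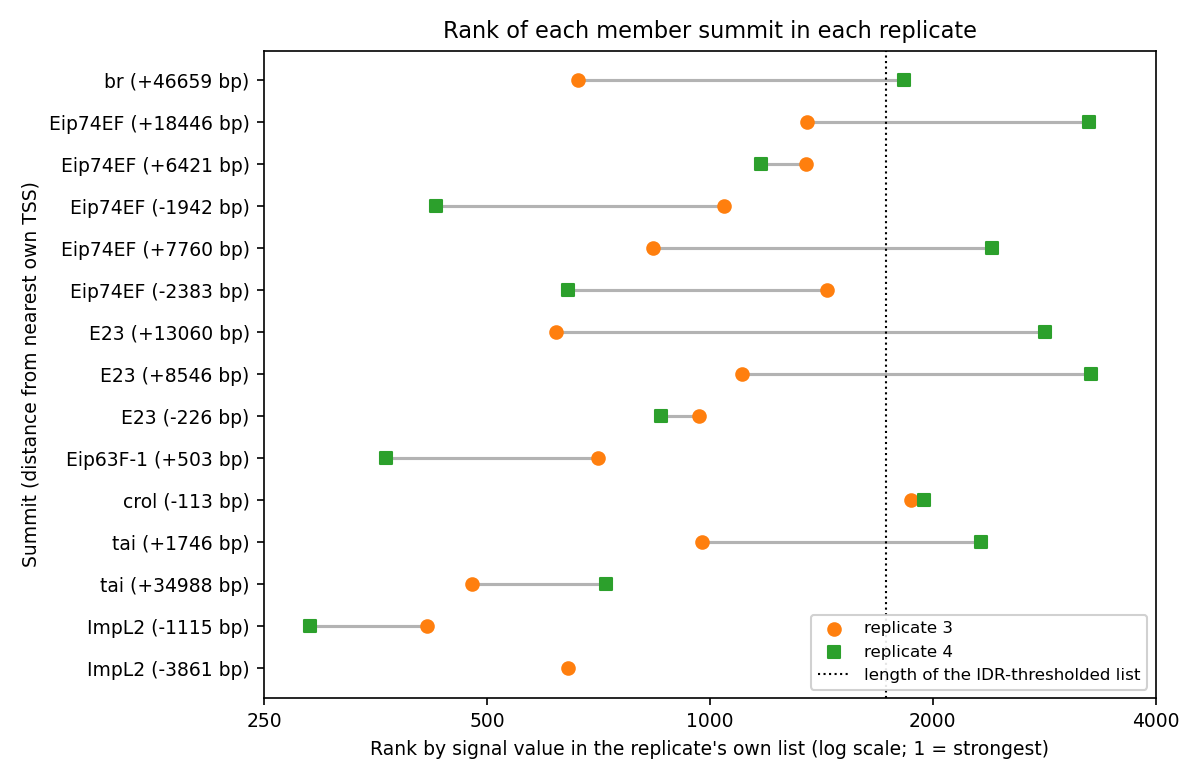
Each row is 1 of the 15 summits, named by its gene and its distance from the nearest own TSS, and the horizontal axis (log scale) is its rank by signal value in replicate 3 (orange circles) and replicate 4 (green squares). The dotted line marks rank 1731, and 7 rows have both points to its left. The Sqor summit upstream of ImpL2 has no point for replicate 4 because no summit lay within 100 bp.

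Of the 15 summits, 2 lay in the top 25% of the 1708 nuclear regions, at ImpL2 and Eip63F-1. The signal values of the 15 ran from 73.66 to 163.9 with a median of 101.2. Over all nuclear regions the median was 104.0, close to theirs, and the range was 73.53 to 778.9. For the strongest summit of each gene, the share of nuclear regions with a higher signal value was 17.6% at ImpL2, 24.6% at Eip63F-1, 34.5% at tai, 34.8% at Eip74EF, 50.6% at E23, 52.2% at br and 99.5% at crol. The strongest 25% of the full list, mitochondrial regions included, held 1 of the 15, that of ImpL2. Above the list's median lay 6 of the 15.

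**Figure D4:**
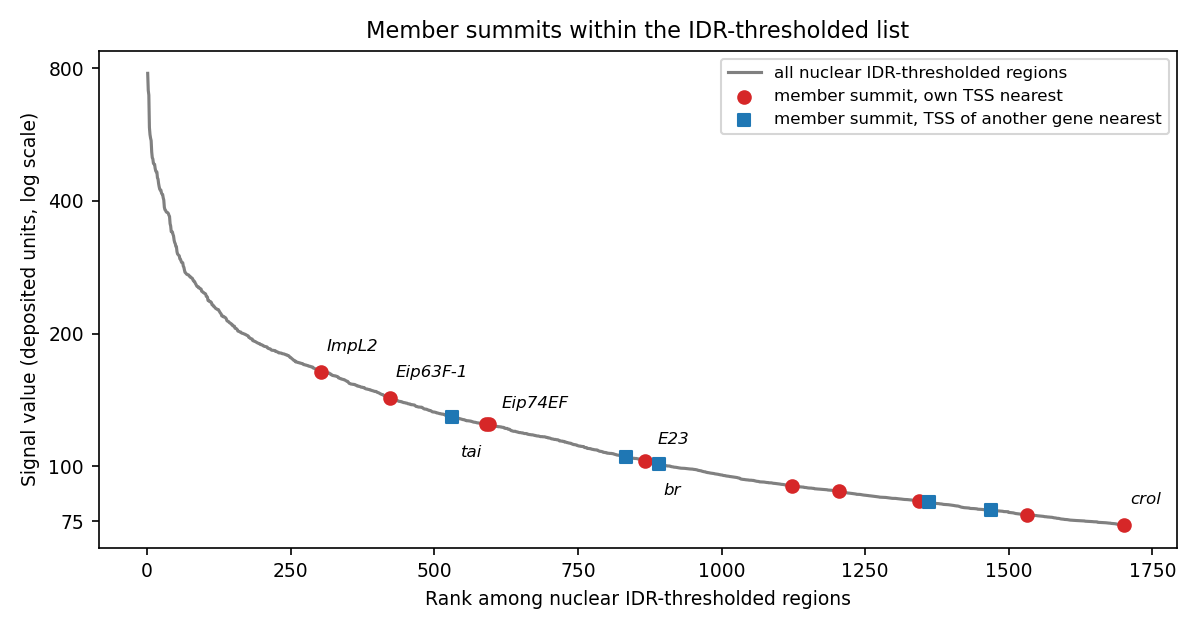
The line gives the signal value (log scale) of all 1708 nuclear IDR-thresholded regions by rank, and the points are the 15 summits, red circles where the gene's own TSS was nearest and blue squares where that of another gene was. The gene name stands at the strongest summit of each of the 7 genes, from ImpL2 at 163.9 to crol at 73.66.

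Other genes of the ecdysone pathway were counted by the same rules. Of 8 nuclear receptor genes of the cascade, 6 had an IDR-thresholded summit inside or within 5 kb, and 3 within 1 kb of a TSS. The shares were 26.8% and 12.2% of all protein-coding genes, and 36.6% and 15.9% of the long genes defined above. Gene length was not matched for these lists. The 3 receptor genes with a summit at a TSS were Eip75B (signal value 122.6, 72 bp downstream), ftz-f1 (83.81, 24 bp downstream) and Hr3 (79.33, 556 bp upstream, with the TSS of Hdc nearer). Of 16 further response genes, 6 had a summit by the 5 kb rule and 2 at a TSS, Ldh (211.6, 183 bp upstream), the lactate dehydrogenase gene, and the cell death gene hid (112.0, 311 bp upstream). The 2 of 16 at a TSS are close to the share of all genes. No summit lay inside or within 5 kb of Sgs3, Fbp1, the 3 Edg genes, ImpE1, ImpE2, ImpL1, rpr or Cyp18a1.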

How the data were processed

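ChIP-seq peak lists on dm6 from 2 replicates of whole larvae were used. The deposited signal values are never negative, and no source used here gives their normalisation. The significance column that the authors deposited was read as a −log10 q-value, from the file layout. The deposited file descriptions derive each replicate's list from its alignments and 1 further file, and the pooled list from both replicates. No source used here names the aligner or the peak caller, or what that further file was. All 1731 IDR-thresholded regions were the 1731 strongest pooled regions, so the list and the pooled ranks are not independent of the replicates.

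Summits were placed on the Ensembl release 115 annotation without transposable elements, after region ends were checked against the release 6 genome. Summits within 100 bp were matched between lists. Ranks include mitochondrial regions unless called nuclear. Of the 24 other pathway genes, 2 were matched by synonym (Eip71CD as MsrA and Eip55E as Cth). The genes, lists and words were chosen with earlier results of these data known. Named genes are the 10 listed, the gene with the TSS nearest a summit, and pathway genes with a summit at a TSS, while the divergent partners anchor and hfw, the genes at weaker regions (Idh3b, CG9586 and Mur2B) and the pathway genes named as lacking a summit were added after values were seen. Counts are descriptions, and no test was made, since the series has 1 group. The dm3 lists were not used. Planted summits at known distances were recovered when the counting was tested on simulated data. Python 3.11.15 and pandas 2.3.3 were used. Alternatives are given in the closing section.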

Additional observations from a re-analysis of the deposited data

How the results depend on the processing

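The number of genes with a summit (7), the number of summits (15) and the number nearest their own gene's TSS (10) depended most on the length of the list. In the strongest 25% of the IDR-thresholded list they were 1, 1 and 1, and 0 genes had a promoter summit. In the 5000 strongest pooled regions, 56 summits were counted, 41 nearest the gene's own TSS, 7 genes had a promoter summit and AAGTCA was at 3 summits. Without flanks, 9 summits remained. A TSS window of 2 kb gave 6 genes with a promoter summit in place of 3. AAGTCA was at 2 summits within 100 bp. Leaving out each replicate gave 6 to 7 genes, 14 to 18 summits, 3 genes with a promoter summit, 9 to 13 summits nearest their own gene's TSS and 0 to 2 with AAGTCA. By gene, br and E23 had 0 and 1 summits without replicate 3, in place of 1 and 3, Eip93F then had 1, and crol had 0 without replicate 4. Matched anywhere in the replicates' lists, 14 summits were in both replicates in place of 7. The median share of nuclear regions above the summits was 52.2%, and 36.3% to 51.5% within the replicates. Those values cover only the 7 and 14 summits among the 1731 strongest regions of replicates 4 and 3, so they leave out the weaker summits and do not show higher ranks. Over the 14 summits matched in both, the median rank was 971.5 in replicate 3 and 1501 in replicate 4. The other alternatives for the counts stayed within 1.5 times the reported count. For the median share, ranking by the significance column gave 54.8%. The causes were not tested. No paired analysis was possible because the series has 1 group. With depth unknown, a gene without a region is not shown to be unbound.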
